A study of Mus musculus with 4 samples.

Results

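The genes described here are 10 mouse genes of lipid uptake, lipid storage and their control in sebocytes, the lipid-filled cells of the sebaceous gland: Pparg, Lpl, Awat2, Dgat2, Fabp4, Fabp5, Plin2, Cd36, Mc5r and Soat1. The 10 genes and the wider lists below were picked by gene symbol, with earlier results of these data known. Each of the 10 has 1 row among the 23361 genes of the deposited table. All 10 averaged 0.5 FPKM or more over the 4 libraries and so were among the 12750 genes tested. FPKM counts fragments mapped to a gene, scaled to its transcript length and to the mapped fragments of the library.

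RNA was sequenced from Nfatc1+ hair peg cells and from Shh+ hair peg cells of mouse embryonic back skin, with 2 libraries of each. The Nfatc1+ cells came from Nfatc1-CreER::Rosa-stop-tdTomato::K14-H2BGFP embryos and the Shh+ cells from Shh-CreER::Rosa-stop-tdTomato::K14-H2BGFP embryos, so that tamoxifen, given to the mother at E15.5, turned on tdTomato in cells expressing Nfatc1 or Shh, while keratin 14 drove a green nuclear histone in epithelial cells. Cells carrying both colours were sorted at E17.5. tdTomato stays on in descendants of a labelled cell, so each group held cells with a history of expressing the gene. The groups were also released from the skin differently. Whole skin was kept 16 min in 0.25% trypsin at 37°C for Nfatc1+ cells. Skin for Shh+ cells stayed 1 h in dispase (0.4 mg/ml, 37°C), lost its epidermis and then had 10 min in trypsin. According to the paper, the epidermis taken off held placodes and hair germs, the earlier follicle stages. The dermis kept for Shh+ cells held hair pegs only, while no tissue was taken off for Nfatc1+ cells. The population, the way of digestion and the tissue kept cannot be told apart in any comparison here. Whether replicates were different animals or litters is not given in the sources used here, so p-values speak only of the spread among these libraries, which may be technical. In sorted bulk RNA, fewer cells of a type and less RNA per cell cannot be told apart either.

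As background, fatty acids reach a sebocyte from outside or are made in it, are carried through the cytosol by binding proteins, and are joined to glycerol, long-chain alcohols or cholesterol to give the triglycerides, wax esters and sterol esters of sebum. These are packed in droplets with a perilipin coat until the cell bursts. PPARγ, the nuclear receptor encoded by Pparg, is known for driving this programme in sebocytes as it does in adipocytes, and it binds DNA with a retinoid X receptor at direct repeats of a short half-site.

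Pparg and Lpl differed most between the populations, with 9.13 to 22.0 FPKM in the Nfatc1+ libraries and 0 to 1.08 FPKM in the Shh+ libraries. Of the 10 genes, 7 were higher in Nfatc1+ cells (Pparg, Lpl, Fabp4, Plin2, Soat1, Cd36 and Awat2), 1 was higher in Shh+ cells (Fabp5), and Dgat2 and Mc5r were not called, at a Benjamini-Hochberg adjusted p under 0.05 in limma on log2(FPKM + 0.5). Among all genes tested, 16.6% were higher in Nfatc1+ cells and 14.9% were higher in Shh+ cells by the same rule. Both Nfatc1+ libraries lay above both Shh+ libraries for 8 of the 10 genes, against 35.1% of all genes tested, and both Shh+ libraries lay above for 1, against 35.6%. The median log2 fold change, Nfatc1+ over Shh+, was 1.08 over the 10 genes and -0.00 over all genes tested. On this scale the change of low genes is understated.

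Promoter windows from RefSeq (GRCm38.p6) were at hand for 5 of the genes, with 8 windows in all. Each window holds 300 bases, 250 before the transcription start and 50 from it on, and is written 5′ to 3′ on the gene's strand. The 3 windows of Pparg are shown because they stand for alternative starts that a single FPKM value for the gene does not separate. Those of Plin2 and Cd36 are shown because both genes are known targets of PPARγ in adipocytes and macrophages. The Cd36 window lies inside the annotated gene (chr5:17781690-17888801, minus strand), away from its 5′ end, and so stands for an internal start. Capitals mark the nuclear receptor half-site AGGTCA on either strand.
Pparg, chr6:115360894-115361193, plus strand: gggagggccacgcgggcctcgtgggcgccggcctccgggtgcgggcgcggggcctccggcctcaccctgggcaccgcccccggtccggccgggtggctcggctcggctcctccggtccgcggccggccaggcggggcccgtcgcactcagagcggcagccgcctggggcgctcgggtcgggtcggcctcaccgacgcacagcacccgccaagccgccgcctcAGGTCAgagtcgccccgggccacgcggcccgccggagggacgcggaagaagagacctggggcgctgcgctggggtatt
Pparg, chr6:115362099-115362398, plus strand: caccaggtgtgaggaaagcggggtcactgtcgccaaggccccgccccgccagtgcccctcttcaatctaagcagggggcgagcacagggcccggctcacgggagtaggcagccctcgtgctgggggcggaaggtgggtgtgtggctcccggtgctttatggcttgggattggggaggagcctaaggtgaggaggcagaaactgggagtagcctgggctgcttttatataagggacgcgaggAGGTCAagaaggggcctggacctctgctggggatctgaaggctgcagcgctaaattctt
Pparg, chr6:115421816-115422115, plus strand: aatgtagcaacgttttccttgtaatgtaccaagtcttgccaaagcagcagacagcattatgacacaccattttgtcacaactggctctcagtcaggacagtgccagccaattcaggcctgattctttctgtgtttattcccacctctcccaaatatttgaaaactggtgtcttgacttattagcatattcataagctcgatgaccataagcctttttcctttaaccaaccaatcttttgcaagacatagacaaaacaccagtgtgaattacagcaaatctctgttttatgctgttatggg
Plin2, chr4:86670010-86670309, minus strand: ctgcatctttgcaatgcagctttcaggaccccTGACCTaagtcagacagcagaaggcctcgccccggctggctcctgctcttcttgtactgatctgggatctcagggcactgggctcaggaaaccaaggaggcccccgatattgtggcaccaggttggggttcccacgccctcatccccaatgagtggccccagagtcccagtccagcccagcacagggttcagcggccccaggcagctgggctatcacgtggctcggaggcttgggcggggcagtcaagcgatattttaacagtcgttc
Cd36, chr5:17835847-17836146, minus strand: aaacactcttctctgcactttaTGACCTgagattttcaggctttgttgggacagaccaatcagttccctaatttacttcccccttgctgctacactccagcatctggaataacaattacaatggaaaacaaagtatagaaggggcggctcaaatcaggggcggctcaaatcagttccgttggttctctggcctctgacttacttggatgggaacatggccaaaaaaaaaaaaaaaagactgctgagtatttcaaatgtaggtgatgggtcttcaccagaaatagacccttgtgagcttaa

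The half-site was found in 4 of the 8 windows, against 16.3% of 32851 windows of the same length in the RefSeq table. No chromosome was left out of the 32851. It began 28 and 9 bases before the start in the first and the second Pparg window. In Plin2 it began 218 bases before the start, and in Cd36 228 bases before the internal start. The Awat2 and Soat1 windows and the third of Pparg held none. The direct repeat AGGTCANAGGTCA, which contains the half-site, was in none of the 8 windows and in 0.0396% of all windows. The E-box CACGTG, a site of basic helix-loop-helix factors, was in the Plin2 window and in 7.15% of all windows. These are matches of letters in the reference genome and say nothing of binding in these cells.

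The label of each group held in the table. Nfatc1 was at 112 and 116 FPKM in the Nfatc1+ libraries against 25.3 and 20.1 FPKM in the Shh+ libraries, and Shh was at 10.5 and 11.7 FPKM in the Nfatc1+ libraries against 144 and 145 FPKM in the Shh+ libraries, both genes having been used for the sort. Depth in reads is unknown, as FPKM gives no counts. Relative depth, read from the smallest steps between low values, was 1 and 0.957 in the Nfatc1+ libraries and 0.903 and 0.555 in the Shh+ libraries, Shh+ replicate 2 being the least precise at low levels. The SD of the log2 difference over 7257 well expressed genes (10 FPKM or above) was 0.63 between the groups, with 0.21 between the Nfatc1+ replicates and 0.28 between the Shh+ replicates.

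**Figure D1:**
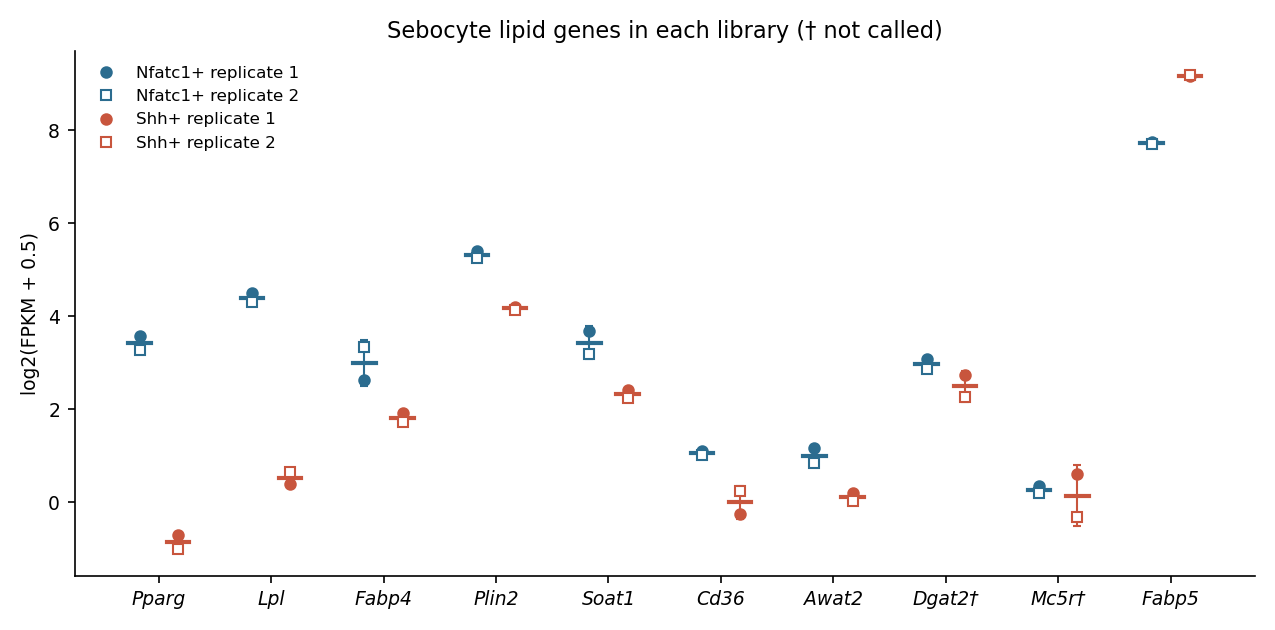
Level of each of the 10 genes in each library, as log2(FPKM + 0.5), with Nfatc1+ libraries in blue and Shh+ libraries in red. Horizontal bars are means and vertical bars the SD of the 2 libraries on this scale. Both Nfatc1+ points lie above both Shh+ points for 8 genes, both lie below for Fabp5, and those of Mc5r overlap.

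Pparg, which lies on the plus strand of chromosome 6 (chr6:115360951-115490399, GRCm38), had the largest log2 fold change of the 10. It was at 11.4 and 9.13 FPKM in the Nfatc1+ libraries, against 0.115 FPKM in Shh+ replicate 1, and was listed at 0 in Shh+ replicate 2. Both Nfatc1+ libraries were far above both Shh+ libraries. The means were 10.3 ± 1.60 FPKM in the Nfatc1+ libraries and 0.0577 ± 0.0816 FPKM in the Shh+ libraries (SD, n = 2), and no ratio is given because 1 library was at 0. The log2 fold change was 4.27 ± 0.16 (SE; 95% interval 3.85 to 4.69; limma, adjusted p = 0.000509), rank 14 toward Nfatc1+ cells among the 12750 genes tested. With Shh+ cells at the floor this value depends on the constant added before the log and was 6.13 with 0.1 and 3.41 with 1 in place of 0.5. An antisense gene, Gm44079, overlaps Pparg in the annotation and has no row in the table.

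The other PPAR receptors set this in context. Ppard, the broadly expressed member of the family, was at 16.8 and 18.9 FPKM in the Nfatc1+ libraries and 21.6 and 18.5 FPKM in the Shh+ libraries, with overlapping groups and no call (log2 fold change -0.16 ± 0.11, adjusted p = 0.347). Ppara, known for fatty acid oxidation, was at 1.37 and 1.24 FPKM in the Nfatc1+ libraries against 0.118 and 0.127 FPKM in the Shh+ libraries, and was higher in Nfatc1+ cells (log2 fold change 1.53 ± 0.08, adjusted p = 0.000793). Of the summed FPKM of the 3 receptors, Pparg made up 38.5% and 31.2% in Nfatc1+ cells, against 0.529% and 0% in Shh+ cells. Ppard made up 56.9% and 64.6% in Nfatc1+ cells and 98.9% and 99.3% in Shh+ cells. Ppard was thus the most abundant receptor transcript per length in all 4 libraries.

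**Figure D2:**
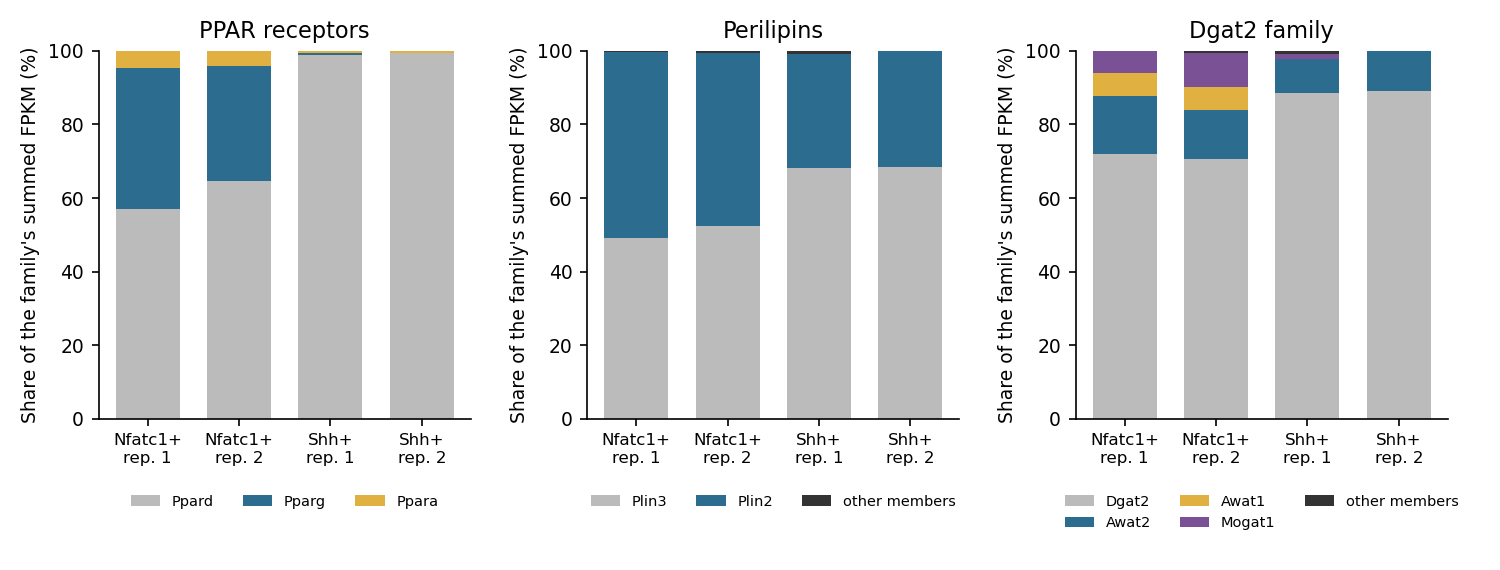
Share of each gene in the summed FPKM of its family, in percent, for the PPAR receptors, the perilipins and the Dgat2 family, with 1 bar per library and the Nfatc1+ libraries on the left. Pparg takes 31.2% to 38.5% of the receptor total in Nfatc1+ cells and at most 0.529% in Shh+ cells, and Plin2 takes 46.8% to 50.6% of the perilipin total in Nfatc1+ cells and 31.0% to 31.4% in Shh+ cells.

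Lpl and Cd36 act in the uptake of fatty acids. Lpl, the lipase that frees fatty acids from lipoprotein triglyceride (chr8:68880491-68907448, plus strand), was at 22.0 and 19.2 FPKM in the Nfatc1+ libraries, against 0.811 and 1.08 FPKM in the Shh+ libraries. Both Nfatc1+ libraries were well clear of both Shh+ libraries. The means of 20.6 ± 1.97 FPKM in the Nfatc1+ libraries and 0.944 ± 0.188 FPKM in the Shh+ libraries (SD, n = 2) gave a 21.8-fold ratio and a log2 fold change of 3.87 ± 0.13 (95% interval 3.52 to 4.22, adjusted p = 0.000476), rank 21 of 12750.

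Cd36, the scavenger receptor that takes up long-chain fatty acids (chr5:17781690-17888801, minus strand), was much lower in level. It was at 1.65 and 1.52 FPKM in the Nfatc1+ libraries, against 0.338 and 0.692 FPKM in the Shh+ libraries, without overlap, replicate 2 being the higher of the Shh+ libraries. Its means were 1.58 ± 0.0912 FPKM in the Nfatc1+ libraries and 0.515 ± 0.250 FPKM in the Shh+ libraries (SD, n = 2), a ratio of 3.07. The log2 fold change was 1.06 ± 0.19 (95% interval 0.56 to 1.55, adjusted p = 0.0173). The call ended without Nfatc1+ replicate 1 (adjusted p = 0.0720) or Nfatc1+ replicate 2 (0.0608).

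The fatty acid binding proteins Fabp4 and Fabp5, which carry fatty acids in the cytosol, were called in opposite directions although they lie in 1 gene cluster. The cluster holds Fabp5, Pmp2, Fabp9, Fabp4 and Fabp12 within 288.6 kb of chromosome 3 (Fabp5 at chr3:10012548-10016607 on the plus strand, Fabp4 at chr3:10204088-10208576 on the minus strand). Pmp2 and Fabp9, which lie between them, and Fabp12 beyond them were listed at 0 in all 4 libraries.

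Fabp5, the form known from epidermis, was the most abundant of the 10 genes. It was at 213 and 206 FPKM in the Nfatc1+ libraries, against 571 and 582 FPKM in the Shh+ libraries. Both Shh+ libraries lay above both Nfatc1+ libraries, and the replicates of each group were close. The means were 209 ± 4.47 FPKM in the Nfatc1+ libraries and 576 ± 7.77 FPKM in the Shh+ libraries (SD, n = 2), 2.75-fold higher in Shh+ cells. The log2 fold change, Nfatc1+ over Shh+, was -1.46 ± 0.07 (95% interval -1.65 to -1.26, adjusted p = 0.000775), rank 341 toward Shh+ cells. A processed pseudogene copy, Fabp5l2, has no row in the table, and reads shared with it would not be seen.

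Fabp4, the form known from adipocytes, macrophages and endothelium, was at 5.72 and 9.61 FPKM in the Nfatc1+ libraries, against 3.29 and 2.80 FPKM in the Shh+ libraries. The groups did not overlap, but Nfatc1+ replicate 2 stood well above Nfatc1+ replicate 1. The means of 7.67 ± 2.75 FPKM in the Nfatc1+ libraries and 3.05 ± 0.342 FPKM in the Shh+ libraries (SD, n = 2) gave a ratio of 2.52 and a log2 fold change of 1.16 ± 0.25 (95% interval 0.49 to 1.84, adjusted p = 0.0301). The call ended without Shh+ replicate 1 (adjusted p = 0.0909) or Shh+ replicate 2 (0.118).

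Within the Fabp family, Fabp5 made up 97.2% and 95.1% of the summed FPKM in the Nfatc1+ libraries and 99.3% and 99.4% in Shh+ cells, and Fabp4 2.62% and 4.43% in Nfatc1+ cells against 0.572% and 0.479% in Shh+ cells. Fabp7 was at most 1.08 FPKM and was not called (adjusted p = 0.996), and Fabp3 was at most 0.388 FPKM. Fabp5 therefore carried nearly the whole family in both populations. It also weighed on the sum of the 10 genes, which was 318 and 300.4 FPKM in the Nfatc1+ libraries and 606 and 613 FPKM in the Shh+ libraries. Without Fabp5 the sum was 105 and 94.2 FPKM in the Nfatc1+ libraries, against 35.1 and 31.1 FPKM in the Shh+ libraries.

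**Figure D3:**
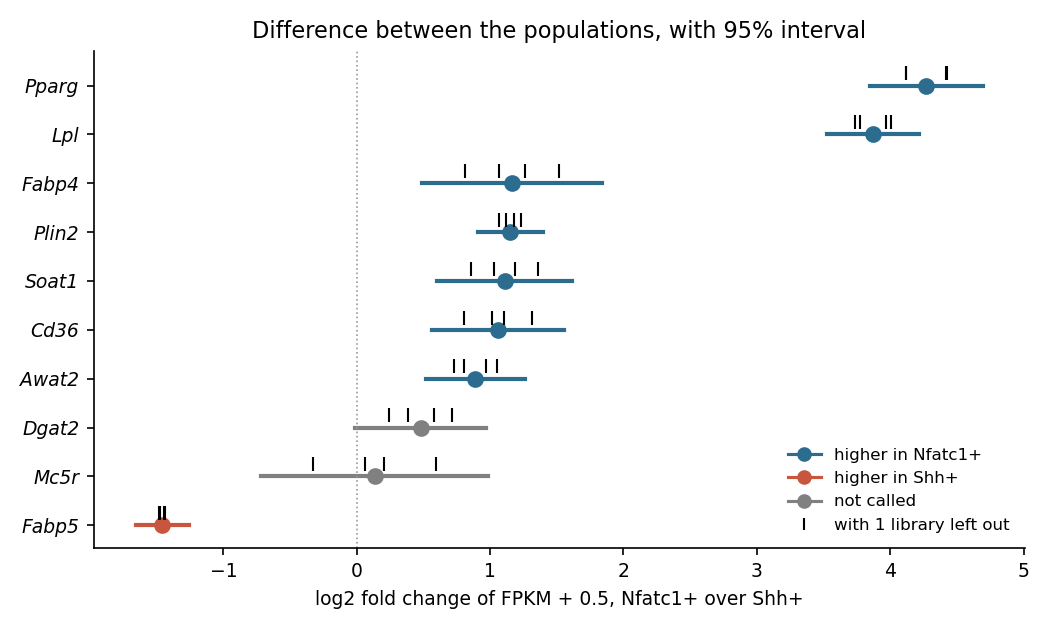
Log2 fold change of FPKM + 0.5, Nfatc1+ over Shh+, for each of the 10 genes (circles) with its 95% interval from limma (lines), coloured by call, and the value with each of the 4 libraries left out in turn (black ticks). Pparg at 4.27 and Lpl at 3.87 stand apart, 5 genes lie between 0.89 and 1.16, and Fabp5 alone is below 0 at -1.46.

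Plin2 and 3 acyltransferases act in storage. Plin2, the droplet coat protein found in most cells that hold lipid (chr4:86648386-86670060, minus strand), was at 41.8 and 37.4 FPKM in the Nfatc1+ libraries, against 17.9 and 17.1 FPKM in the Shh+ libraries. The groups were clearly apart. The means of 39.6 ± 3.14 FPKM in the Nfatc1+ libraries and 17.55 ± 0.566 FPKM in the Shh+ libraries (SD, n = 2) gave a ratio of 2.26 and a log2 fold change of 1.15 ± 0.09 (95% interval 0.91 to 1.40, adjusted p = 0.00204). Plin3, the other perilipin found widely, was at 40.6 and 41.9 FPKM in the Nfatc1+ libraries and 39.4 and 37.3 FPKM in the Shh+ libraries and was not called (log2 fold change 0.10 ± 0.08, adjusted p = 0.371). Plin1, the coat protein of adipocytes, was at 0.101 and 0.328 FPKM in the Nfatc1+ libraries and listed at 0 in both Shh+ libraries. Plin4 and Plin5 were at most 0.313 FPKM. Plin2 made up 50.6% and 46.8% of summed perilipin FPKM in the Nfatc1+ libraries, against 31.0% and 31.4% in Shh+ cells.

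Soat1, which esterifies cholesterol (chr1:156424525-156474331, minus strand), was at 12.4 and 8.55 FPKM in the Nfatc1+ libraries, against 4.79 and 4.23 FPKM in the Shh+ libraries. Both Nfatc1+ libraries were above both Shh+ libraries, with replicate 1 the higher of the Nfatc1+ libraries. The means were 10.5 ± 2.70 FPKM in the Nfatc1+ libraries and 4.51 ± 0.395 FPKM in the Shh+ libraries (SD, n = 2), a ratio of 2.32, and the log2 fold change was 1.11 ± 0.19 (95% interval 0.60 to 1.62, adjusted p = 0.0163). The call ended without Shh+ replicate 1 (adjusted p = 0.0595) or Shh+ replicate 2 (0.0755). Soat2, the form known from liver and intestine, was listed at 0 except in Shh+ replicate 1, at 0.0472 FPKM.

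Awat2, an acyltransferase that makes wax esters (chrX:100402221-100442717, minus strand), was at 1.74 and 1.29 FPKM in the Nfatc1+ libraries, against 0.648 and 0.522 FPKM in the Shh+ libraries. The level was low in both populations and the groups did not overlap. The means of 1.52 ± 0.315 FPKM in the Nfatc1+ libraries and 0.585 ± 0.0889 FPKM in the Shh+ libraries (SD, n = 2) gave a ratio of 2.59 and a log2 fold change of 0.89 ± 0.14 (95% interval 0.52 to 1.26, adjusted p = 0.0126). The call ended without Shh+ replicate 2 (adjusted p = 0.0607). Otud6a, which overlaps Awat2 on the other strand, was at 0 and 0.130 FPKM in the Nfatc1+ libraries and at 0 in both Shh+ libraries. Awat1, a neighbour and close relative of Awat2 in a cluster of 176 kb on the X chromosome, was below the level needed for a test, at 0.697 and 0.601 FPKM in the Nfatc1+ libraries and listed at 0 in both Shh+ libraries. Dgat2l6, between them, was at 0.0641 FPKM in Nfatc1+ replicate 2 and at 0 in the other libraries.

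Dgat2, which adds the last acyl chain of triglyceride (chr7:99153658-99182719, minus strand), was at 7.90 and 6.84 FPKM in the Nfatc1+ libraries and 6.12 and 4.29 FPKM in the Shh+ libraries. The groups did not overlap, but the lower Nfatc1+ library was close to the higher Shh+ library. The means were 7.37 ± 0.751 FPKM in the Nfatc1+ libraries and 5.21 ± 1.30 FPKM in the Shh+ libraries (SD, n = 2), and the log2 fold change of 0.48 ± 0.18 did not pass the test (95% interval -0.01 to 0.97, adjusted p = 0.120). It did pass without Shh+ replicate 1 (adjusted p = 0.0445). Dgat1, an enzyme of another family for the same step, was at 12.8 and 11.5 FPKM in the Nfatc1+ libraries, against 9.08 and 8.91 FPKM in the Shh+ libraries, and was higher in Nfatc1+ cells (log2 fold change 0.41 ± 0.09, adjusted p = 0.0302). This call ended when any 1 of the 4 libraries was left out (adjusted p = 0.0614 to 0.132). Dgat1 made up more than Dgat2 of their summed FPKM in every library, 61.9% and 62.6% in Nfatc1+ cells and 59.7% and 67.5% in Shh+ cells.

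Within the Dgat2 family, Dgat2 made up 71.8% and 70.6% of the summed FPKM in the Nfatc1+ libraries, against 88.5% and 89.2% in Shh+ cells. Mogat1, which acylates monoacylglycerol, was at 0.658 and 0.886 FPKM in the Nfatc1+ libraries and at 0.0888 and 0 FPKM in the Shh+ libraries. Mogat2, which together with Dgat2 spans 85.0 kb of chromosome 7, was at most 0.0576 FPKM. Dgat2 was thus the leading transcript of its family in both populations, and Awat1, Awat2 and Mogat1 together took a larger share in Nfatc1+ cells.

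Mc5r encodes the melanocortin receptor known for its part in sebum production. It was at 0.773 and 0.648 FPKM in the Nfatc1+ libraries and 1.02 and 0.299 FPKM in the Shh+ libraries, so the Shh+ libraries lay on either side of the Nfatc1+ libraries. The means were 0.710 ± 0.0884 FPKM in the Nfatc1+ libraries and 0.659 ± 0.510 FPKM in the Shh+ libraries (SD, n = 2). The log2 fold change of 0.13 ± 0.32 had a 95% interval of -0.72 to 0.99 (adjusted p = 0.780). It was 0.60 without Shh+ replicate 1 and -0.33 without Shh+ replicate 2. Of 9 other genes of the melanocortin system, 8 were in the table and none reached the level needed for a test. Mc1r, the pigment cell receptor, was at 0.295 and 0.901 FPKM in the Nfatc1+ libraries and 0.132 and 0.470 FPKM in the Shh+ libraries. Mrap, an accessory protein of these receptors, was listed at 0 in every library.

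The order of the levels differed between the populations. In Nfatc1+ cells the order was Fabp5, Plin2 and Lpl, with ranges that did not touch, then Soat1 and Pparg, which overlapped. Next was Fabp4, whose range overlapped those of Soat1, Pparg and Dgat2, and then Dgat2. Cd36 and Awat2 followed, overlapping only each other, and last came Mc5r. In Shh+ cells the order was Fabp5, Plin2, then Dgat2 and Soat1, which overlapped, and Fabp4. Lpl, Mc5r, Awat2 and Cd36 followed near or below 1 FPKM with ranges that overlapped in part, and last came Pparg. By mean FPKM, Lpl stood at percentile 81.2 of the table in Nfatc1+ cells and 49.4 in Shh+ cells. Pparg stood at 69.5 in Nfatc1+ cells and 35.4 in Shh+ cells, and Fabp5 at 98.8 in Nfatc1+ cells and 99.5 in Shh+ cells. All 23361 genes were ranked, and 6269 of them, at 0 in all 4 libraries, lie below every percentile given here. Percentile 35.4 of Pparg in Shh+ cells is a mean of only 0.0577 FPKM.

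Markers of the sebaceous gland outside the 10 genes were mostly higher in Nfatc1+ cells. Of 17 markers, 12 were tested, 9 were higher in Nfatc1+ cells, 2 were higher in Shh+ cells and 1 was not called. Shares over all genes tested were 16.6% toward Nfatc1+ cells and 14.9% toward Shh+ cells. The median log2 fold change of the markers was 2.37. Elovl3, an elongase of very long fatty acids, was at 4.55 and 2.21 FPKM in the Nfatc1+ libraries and listed at 0 in both Shh+ libraries (log2 fold change 2.89 ± 0.31, adjusted p = 0.00424). Acsbg1, an acyl-CoA synthetase, was at 12.9 and 9.98 FPKM in the Nfatc1+ libraries, against 1.10 and 1.14 FPKM in the Shh+ libraries (2.87 ± 0.14, adjusted p = 0.000734). Elovl3, like Pparg, was thus at 0 in at least 1 Shh+ library, and its fold change too depends on the constant added before the log (5.04 with 0.1 and 2.08 with 1). Cidea, a protein of droplet fusion, was at 6.94 and 3.69 FPKM in the Nfatc1+ libraries, against 0.555 and 0.149 FPKM in the Shh+ libraries (2.75 ± 0.37, adjusted p = 0.00798). Gata6, a transcription factor of the sebaceous duct, was higher in Shh+ cells, at 1.33 and 1.13 FPKM in the Nfatc1+ libraries and 3.21 and 2.56 FPKM in the Shh+ libraries (-0.96 ± 0.13, adjusted p = 0.00809). Without Shh+ replicate 1 or Shh+ replicate 2, 1 marker was called higher in Shh+ cells.

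Partners and regulators of PPARγ held 9 genes higher in Nfatc1+ cells, 0 higher in Shh+ cells and 8 not called among 17 tested of 20. Shares over all genes tested were 16.6% toward Nfatc1+ cells and 14.9% toward Shh+ cells. The median log2 fold change of the list was 0.80. At an unadjusted p under 0.05 in limma, 0 were higher in Shh+ cells. Prdm1, which encodes BLIMP1 and is also on the sebaceous list, was at 34.9 and 39.0 FPKM in the Nfatc1+ libraries, against 7.61 and 6.03 FPKM in the Shh+ libraries (log2 fold change 2.36 ± 0.14, adjusted p = 0.000987). Cebpb, a factor that acts before Pparg when adipocytes form, was at 108 and 99.9 FPKM in the Nfatc1+ libraries, against 38.6 and 30.0 FPKM in the Shh+ libraries (1.59 ± 0.14, adjusted p = 0.00281). Ppara was the next of this list.

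Among genes known as PPARγ targets in adipocytes, 22 outside the 10 were listed and 14 tested. Of these, 7 were higher in Nfatc1+ cells (16.6% of all genes tested were), 1 in Shh+ cells (14.9%) and 6 were not called. The median log2 fold change of the list was 0.57. Besides Cidea, the highest were Scd1, a fatty acid desaturase, at 47.4 and 42.0 FPKM in the Nfatc1+ libraries against 9.26 and 7.16 FPKM in the Shh+ libraries (2.38 ± 0.15, adjusted p = 0.00114), and Cpt1a, which brings fatty acids into mitochondria for oxidation, at 10.3 and 10.97 FPKM in the Nfatc1+ libraries against 1.39 and 2.56 FPKM in the Shh+ libraries (2.21 ± 0.25, adjusted p = 0.00471). The list so held genes of fatty acid synthesis and of fatty acid oxidation on the same side. The call toward Shh+ cells ended when any 1 library was left out.

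Genes of the droplet coat and of lipolysis were called in both directions. Of 22 listed, 15 were tested, with 6 higher in Nfatc1+ cells, 3 higher in Shh+ cells and 6 not called. Shares over all genes tested were 16.6% toward Nfatc1+ cells and 14.9% toward Shh+ cells. The median log2 fold change of the list was 0.20. Of those called, the largest changes after Cidea were in Mgll, which cleaves monoacylglycerol, at 5.90 and 5.28 FPKM in the Nfatc1+ libraries against 2.11 and 1.36 FPKM in the Shh+ libraries (1.46 ± 0.19, adjusted p = 0.00688), and Hsd17b11, a dehydrogenase found on droplets, at 1.34 and 1.27 FPKM in the Nfatc1+ libraries against 0.603 and 0.680 FPKM in the Shh+ libraries (0.66 ± 0.08, adjusted p = 0.00648). Of those higher in Shh+ cells, Pnpla3, a droplet protein with lipase activity, was at 0.824 and 0.766 FPKM in the Nfatc1+ libraries and 3.97 and 3.06 FPKM in the Shh+ libraries (-1.62 ± 0.13, adjusted p = 0.00211). Nceh1, a cholesterol ester hydrolase, and Pnpla2, the triglyceride lipase ATGL, had log2 fold changes of -0.69 ± 0.15 (adjusted p = 0.0301) and -0.40 ± 0.10 (adjusted p = 0.0421). The 6 calls toward Nfatc1+ cells became 3 without Nfatc1+ replicate 1 or 2. The 3 toward Shh+ cells became 1 without Nfatc1+ replicate 1, Nfatc1+ replicate 2 or Shh+ replicate 1.

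Of 26 glycerolipid, wax and sterol ester synthesis genes, 20 were tested. Among them 5 were higher in Nfatc1+ cells (16.6% of all genes tested were), 0 in Shh+ cells (14.9%) and 15 were not called. The median log2 fold change of the list was 0.11. At an unadjusted p under 0.05 in limma, 2 were higher in Shh+ cells. The 3 with the largest change were Acsbg1, given above, Far2, which makes the fatty alcohols of wax, at 9.14 and 6.14 FPKM in the Nfatc1+ libraries against 0.745 and 1.29 FPKM in the Shh+ libraries (2.42 ± 0.26, adjusted p = 0.00440), and Acsl1, an acyl-CoA synthetase, at 16.2 FPKM in both Nfatc1+ libraries against 8.08 and 7.57 FPKM in the Shh+ libraries (1.00 ± 0.08, adjusted p = 0.00190). The 5 calls became 3 without Nfatc1+ replicate 1 or 2.

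Of 26 genes of fatty acid uptake, binding and lipoprotein handling, 13 were tested. Among them 3 were higher in Nfatc1+ cells (against the same 16.6%), 0 in Shh+ cells (against 14.9%) and 10 were not called. The median log2 fold change of the list was 0.20. By unadjusted p under 0.05 in limma, 1 was higher in Shh+ cells. Slc27a1, the fatty acid transporter FATP1, was at 92.8 and 82.3 FPKM in the Nfatc1+ libraries, against 39.6 and 37.5 FPKM in the Shh+ libraries (1.17 ± 0.10, adjusted p = 0.00218). Its level was far above that of Cd36 in all 4 libraries. Slc27a6 (0.95 ± 0.20, adjusted p = 0.0292) and the lipoprotein receptor Lrp1 (0.40 ± 0.10, adjusted p = 0.0462) were the others, and 1 call was left of the 3 without Nfatc1+ replicate 2, Shh+ replicate 1 or Shh+ replicate 2. The lists share genes: Cidea stands on 3 of them, and Scd1, Prdm1, Far2, Acsbg1, Acsl1 and Slc27a1 on more than 1.

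**Figure D4:**
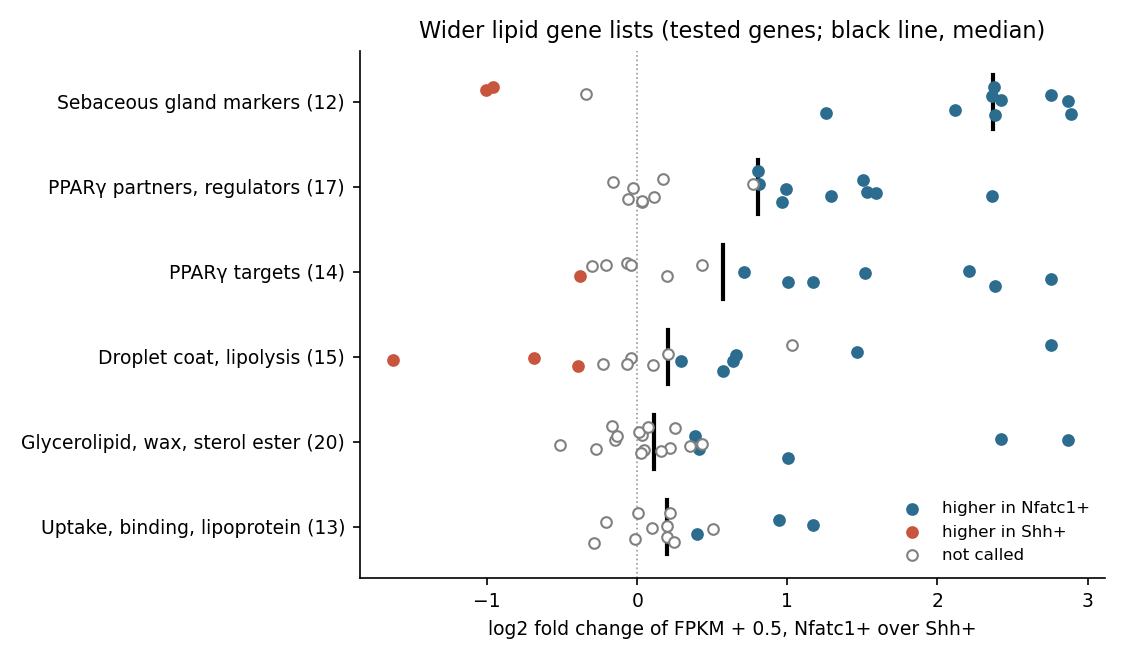
Log2 fold change of FPKM + 0.5, Nfatc1+ over Shh+, for the tested genes of 6 wider lists, 1 circle per gene, with the number tested in brackets and a black line at the median. Blue is higher in Nfatc1+ cells, red higher in Shh+ cells and open grey not called. The medians lie at 2.37 for sebaceous gland markers, 0.80 and 0.57 for the PPARγ lists and 0.11 to 0.20 for the others.

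Pparg, Lpl, Fabp4, Cd36 and Plin2 are also expressed by adipocytes, endothelium or macrophages, so markers of these cells were measured in the same libraries. Shares over all genes tested were 16.6% toward Nfatc1+ cells and 14.9% toward Shh+ cells. The 8 adipocyte markers summed to 2.10 and 1.41 FPKM in the Nfatc1+ libraries and were all at 0 in both Shh+ libraries. Of these, Adipoq, the adipocyte hormone adiponectin, was at 0.0802 and 0.346 FPKM in the Nfatc1+ libraries, and Lep and Retn were at 0 in every library. None of the 8 reached the level needed for a test, and without that filter 1 of them, Car3, was called higher in Nfatc1+ cells (limma, adjusted p = 0.0234). The 9 endothelial markers summed to 13.4 and 14.8 FPKM in the Nfatc1+ libraries and 14.8 and 14.3 FPKM in the Shh+ libraries, with 0 of 7 tested genes called by limma and 0 at an unadjusted p under 0.05, and 1 called higher in Shh+ cells without Nfatc1+ replicate 2. The 8 macrophage and leukocyte markers summed to 6.37 and 12.1 FPKM in the Nfatc1+ libraries and 4.70 and 9.22 FPKM in the Shh+ libraries, with 0 of 6 called and 0 at an unadjusted p under 0.05. Without Nfatc1+ replicate 1, 1 of them was called higher in Nfatc1+ cells, and the sum was higher in replicate 2 of both groups. Fabp4 was higher in replicate 2 of the Nfatc1+ libraries and in replicate 1 of the Shh+ libraries.

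Other lists moved with the groups or with single libraries. Their counts stand against the same 16.6% (higher in Nfatc1+ cells) and 14.9% (higher in Shh+ cells) of all genes tested. The 7 keratinocyte markers summed to 10104 and 9849 FPKM in the Nfatc1+ libraries, against 6699 and 6502 FPKM in the Shh+ libraries, with 4 higher in Nfatc1+ cells. The 7 dermal fibroblast markers summed to 286 and 552 FPKM in the Nfatc1+ libraries and 548 and 607 FPKM in the Shh+ libraries, with Dcn alone called, higher in Shh+ cells. Without Nfatc1+ replicate 1, 3 of them were called higher in Nfatc1+ cells, and without Nfatc1+ replicate 2, 2 were called higher in Shh+ cells. The 7 melanocyte markers summed to 28.5 and 59.2 FPKM in the Nfatc1+ libraries and 6.15 and 38.9 FPKM in the Shh+ libraries, with Mitf alone called, higher in Nfatc1+ cells, and 2 called without Shh+ replicate 2. The fibroblast and melanocyte sums were higher in replicate 2 of both groups. Dcn made up most of the fibroblast sum in the Shh+ libraries, at 326 and 425 FPKM, against 40.3 and 57.7 FPKM in the Nfatc1+ libraries. Every other fibroblast marker was lower in Shh+ replicate 2 than in Shh+ replicate 1. The median log2 fold change of the fibroblast list was 0.52, toward Nfatc1+ cells, with Dcn and Lum going the other way. The 9 immediate early genes, which tissue digestion can induce, summed to 2632 and 2800 FPKM in the Nfatc1+ libraries, against 1201 and 1253 FPKM in the Shh+ libraries, and 6 of the 9 were higher in Nfatc1+ cells. The part of these lists in the differences of the 10 lipid genes was not tested.

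**Figure D5:**
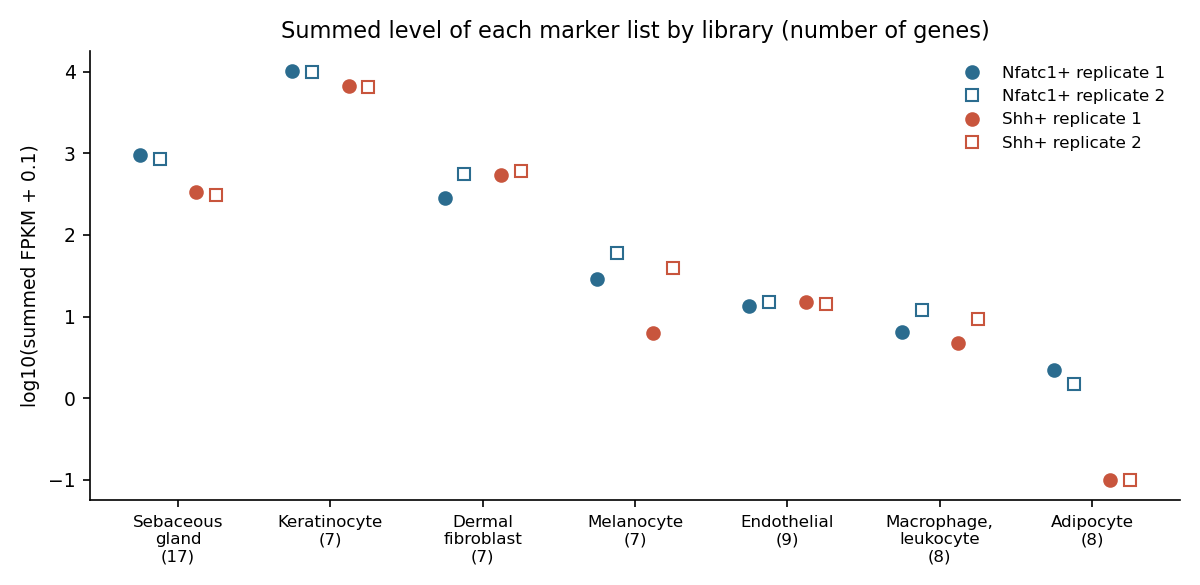
Summed FPKM of each marker list in each library, as log10(sum + 0.1), with the number of genes in brackets, Nfatc1+ libraries in blue and Shh+ libraries in red. Sebaceous gland markers sum to 959 and 848 FPKM in the Nfatc1+ libraries and 337 and 312 FPKM in the Shh+ libraries. Krt79 (488 and 419 FPKM in the Nfatc1+ libraries, 194 and 184 FPKM in the Shh+ libraries) and Lrig1 (249 and 234 FPKM, 52.7 and 58.1 FPKM) make up most of these sums. Adipocyte markers stay at or below 2.10 FPKM in every library.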

How the data were processed

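Total RNA of sorted mouse embryonic skin cells was sequenced as paired reads of 4 libraries, 2 per population. The authors mapped reads to mm10 and deposited FPKM values per gene. Their processing notes list TopHat2 (version 2.0.13), Cufflinks (version 2.2.1) and HTSeq, the role of HTSeq and the use of strand in counting being not given in the sources used here. Groups came from the sample titles, and no column of per-sample values was left unused. Genes averaging 0.5 FPKM or more (12750 of 23361) were tested with limma (version 3.58.1, R version 4.3.3) on log2(FPKM + 0.5), without covariates, with Benjamini-Hochberg adjustment over all of them and a threshold of 0.05. The script was tested on simulated data. Ratios are of mean FPKM.

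The members and lists were chosen with earlier results of these data known. All 10 genes were named, with their measured paralogs, the defining genes of marker lists and up to 3 called genes with the largest change per direction of each wider list. Older symbols were matched, and Asip was left without a row. Alternatives were other pseudocounts, filters, scalings, a variance trend, a stricter threshold, a replicate block and leaving out each library. Positions are from GENCODE M21 (GRCm38, the build of the files). Promoter windows are from RefSeq, with chromosome 18 left out for the 10 genes. Some genes of the wider lists are counted but not reported here by name.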

Additional observations from a re-analysis of the deposited data

How the results depend on the processing

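Of the 10 lipid genes, 7 were higher in Nfatc1+ cells in the main analysis. The count was 6 under the stricter threshold (p under 0.01 before adjustment, and more than 2-fold), where Awat2 was lost, and 4 to 6 with 1 library left out, the lowest without Shh+ replicate 2, where Awat2, Fabp4 and Soat1 were lost. A library left alone in its group was assumed to vary like the other group. Under the other pseudocounts, filters, scalings and variance trend the count was 7. The count higher in Shh+ cells was 1 under every alternative. Pparg, Lpl, Plin2 and Fabp5 kept their calls under all 13 alternatives. With the replicate block the count was 8, Dgat2 being added (adjusted p = 0.0451). The labels give only a number, and the differences between replicates correlated at 0.11 over the groups, so the block is not taken as a pairing.

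Over all genes, 2111 were higher in Nfatc1+ cells and 1898 in Shh+ cells. Leaving out 1 library gave 1210 to 1433 and 1097 to 1165, and the stricter threshold gave 720 and 591. Under that threshold the calls toward Nfatc1+ cells were 5 in place of 9 for PPARγ partners, 3 in place of 5 for synthesis, 2 in place of 6 for droplet, 1 in place of 3 for uptake and 1 in place of 4 for keratinocyte genes, and toward Shh+ cells 1 in place of 3 for droplet and 1 in place of 2 for sebaceous genes. With the replicate block 2 macrophage genes were called, and without a filter 1 adipocyte gene, both toward Nfatc1+ cells. Depth bears on low values, such as those of Mc5r, Awat2 and Cd36 and of Pparg in Shh+ cells, and Shh+ replicate 2 is the shallowest library.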
